A study of Homo sapiens with 6 samples.

Results

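The interleukin-1 family is a group of signalling proteins of innate immunity, here represented by 10 genes chosen by name: the ligands IL1A, IL1B, IL18 and IL33, the receptor antagonist IL1RN, the ligand-binding receptors IL1R1, IL18R1 and IL1RL1, the shared co-receptor IL1RAP, and the inhibitory receptor SIGIRR. Of these 10 genes, 9 have a row among the 15761 gene rows of the table, and IL33 was not analysed here. The genes were proposed with the contrast between exosome and control libraries already known. Their fold changes, and whether they pass a threshold, are therefore given as a description, and no p-value is printed for them. The lists of related genes were also chosen with earlier results of these data known, so their shares called are a description as well.

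SK-MES-1 is an established human lung squamous carcinoma line, labelled wild type. In 3 libraries the cells had been kept for 72 h in complete medium with 20 µg/ml exosomes, which are small membrane vesicles, released by fibroblasts from lungs with idiopathic pulmonary fibrosis (IPF), in which scar tissue replaces the air spaces. The 3 control libraries came from cells kept in parallel without exosomes, and the labels name no group given vesicles of another source. Nothing states that libraries of 1 group came from separate cultures, so p-values measure only the spread between these libraries, which may be technical.

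In background terms, a ligand of this family binds a primary receptor, and the pair recruits a co-receptor. The cytoplasmic TIR domains then assemble MYD88 and IRAK kinases, and TRAF6 passes the signal to NF-kB and MAP kinases. IL1R1 binds IL-1 alpha and IL-1 beta, IL18R1 binds IL-18, and IL1RL1 (also called ST2) binds IL-33, while IL1RAP serves both IL1R1 and IL1RL1. IL1RN blocks IL1R1 without signalling, SIGIRR dampens receptors of the family, and IL-18 and IL-1 beta are cut to their active forms by caspase-1. In epithelia IL-18 is often stored as a precursor, and ST2 is best known on mast cells, type 2 innate lymphoid cells and some T cells.

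With exosomes 4 receptor genes of the family were higher and its most abundant ligand was lower. IL1RL1 was 7.39-fold higher, SIGIRR 2.26-fold, IL18R1 2.04-fold and IL1R1 1.31-fold, while IL18 was 2.41-fold lower (edgeR fit, 3 libraries a group). The co-receptor IL1RAP was not called, with an interval that spans 0, and IL1A, IL1B and IL1RN stayed at a few reads in both groups. Of 6 members with enough reads to be tested, 4 were called higher and 1 lower at an adjusted p under 0.05 (edgeR quasi-likelihood test, Benjamini-Hochberg adjustment over all genes). IL1RL1 passed the filter on low counts only through its exosome libraries, so its call could hardly have been in the other direction. Of all 12449 tested genes, 51.7% were called, 25.6% higher and 26.1% lower. The members were picked with this contrast known, and nothing is read from their count.

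To show what lies in front of IL1RL1, IL18R1 and SIGIRR, the members with the largest fold changes upward before any correction for GC content, the bases before their RefSeq starts (build GRCh38.p14) were taken 5′ to 3′, from 250 bases before the RefSeq start up to the first base of a GENCODE 29 exon of the same gene. Capitals mark matches on either strand to an AP-1 motif (TGANTCA), a STAT motif (TTCNNNGAA), a GATA motif (AGATAA) or an NF-kB motif. The stretches printed for the 2 starts of IL1RL1 lie on the plus strand at chr2:102311313-102311501 and chr2:102337007-102337147. The stretch for the first start of IL18R1 lies on the plus strand at chr2:102355546-102355795, and that for SIGIRR on the minus strand at chr11:417456-417647.
IL1RL1 distal start: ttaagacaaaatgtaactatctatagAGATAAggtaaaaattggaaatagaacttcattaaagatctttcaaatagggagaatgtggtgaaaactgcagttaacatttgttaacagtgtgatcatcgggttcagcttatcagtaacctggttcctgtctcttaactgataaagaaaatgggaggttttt
IL1RL1 proximal start: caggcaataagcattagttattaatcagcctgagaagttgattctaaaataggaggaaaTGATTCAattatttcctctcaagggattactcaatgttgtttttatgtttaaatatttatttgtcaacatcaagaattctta
IL18R1 first start: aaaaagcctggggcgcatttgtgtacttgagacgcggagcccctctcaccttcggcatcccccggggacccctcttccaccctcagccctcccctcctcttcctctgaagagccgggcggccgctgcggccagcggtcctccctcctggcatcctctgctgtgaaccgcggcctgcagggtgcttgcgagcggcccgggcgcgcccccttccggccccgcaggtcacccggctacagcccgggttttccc
SIGIRR start: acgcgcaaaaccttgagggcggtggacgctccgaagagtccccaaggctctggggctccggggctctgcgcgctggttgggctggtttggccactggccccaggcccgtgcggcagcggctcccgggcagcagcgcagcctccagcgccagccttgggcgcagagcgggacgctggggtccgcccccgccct

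The 4 windows differ in composition. The full 250 bases before the distal and proximal IL1RL1 starts had a GC content of 33.6% and 33.2%, against 70.4% for IL18R1 and 76.8% for SIGIRR and a median of 58% over 34943 promoter windows of the same length. The distal IL1RL1 window held 1 GATA match, beginning 224 bases before the start, and the proximal window 1 AP-1 match, beginning 191 bases before it. The windows of SIGIRR and of the first IL18R1 start held none of the motifs. The second IL18R1 start is not printed because its window begins in annotated exon, and the window held 1 GATA and 1 NF-kB match. Corrected, IL1R1 (0.58) stood above SIGIRR (0.52), and 1 of the 4 IL1R1 windows held 1 STAT and 1 GATA match. Among all windows, 6.59% held the AP-1 motif, 6.56% the STAT motif, 9.19% the GATA motif and 9.95% the NF-kB motif. The matches describe the letters only. Of the 10 genes, 9 matched the RefSeq promoter table, and IL18 had no entry. Gene-level counts do not say which IL1RL1 start was used, nor whether transcripts encode the membrane receptor or its soluble form.

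Total counts were 11346639 to 12924251 in control and 13038688 to 13334508 in exosome libraries, so that 1 CPM (a read count scaled to the library total) stands for 11.3 to 13.3 reads. The third library of each group stood apart. The chi-square per gene, a measure of disagreement beyond counting error, was 16.4 and 12.2 for the pairs with control library 3 and 2.32 for the other pair, and 9.72 and 7.42 for the pairs with exosome library 3 and 3.18 for the other pair. Fold changes over all genes followed the GC content of the transcripts (Spearman rho 0.617 across 12449 genes, which are not independent). Values with the trend on GC content and transcript length removed are therefore given beside the others and called corrected. With the correction 35.4% of tested genes were called, 18.2% higher and 17.3% lower. Scaled by library totals alone, 3811 genes were called higher and 2495 lower, against 3190 and 3244. Of 11 epithelial and squamous markers, 7 averaged at least 1 CPM, led by KRT8, DSP and KRT18. Their sum was 4397 to 4573 CPM in control and 3543 to 3674 CPM with exosomes, without overlap, and its part in the results was not tested. The squamous keratins were nearly absent: KRT5 had 0.130 ± 0.120 CPM (SD, n = 3), KRT6A 0.0556 ± 0.0484 CPM and KRT14 0.0818 ± 0.0788 CPM in control, and TP63 had 1.51 ± 0.461 CPM.

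IL1RL1 lies on chromosome 2 from 102311502 to 102352037 on the plus strand (GRCh38). It had 8, 5 and 5 reads in control libraries 1 to 3 and 41, 49 and 63 reads in exosome libraries 1 to 3. As CPM these were 0.629, 0.441 and 0.387 against 3.11, 3.76 and 4.72. Every exosome library lay far above every control library, and the control level rests on only 18 reads in all. The log2 fold change was 2.89 ± 0.36 (SE), with a 95% interval of 2.13 to 3.64, and 3.10 ± 0.35 corrected. Leaving out each library in turn gave 2.70 to 3.14, including 2.74 without control library 3 and 2.70 without exosome library 3.

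IL18R1, the next gene on the same strand, spans 102311529 to 102398775 in the annotation, because 1 of its transcripts begins within the first exon of IL1RL1. The genes share 95 exonic bases, which are 1.65% of the exonic length of IL1RL1 and 2.18% of that of IL18R1. IL18R1 had 3.69, 2.56 and 4.57 CPM in control and 7.90, 8.74 and 6.90 CPM with exosomes. The groups did not overlap, and control library 2 was the lowest of all. The log2 fold change was 1.03 ± 0.21 and 1.24 ± 0.20 corrected, with 1.24 without control library 3 and 1.10 without exosome library 3. No source says to which gene reads in the shared exon were given.

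IL1R1, on chromosome 2 from 102064544 to 102179874, was the most abundant ligand-binding receptor of the set. Its level was 66.5, 69.4 and 75.8 CPM in control and 92.0, 99.5 and 101 CPM with exosomes. The groups lay apart, and the gap between them was wider than the range within either group. The log2 fold change was 0.39 ± 0.083, with 0.45 without control library 3 and 0.35 without exosome library 3. The corrected value was 0.58 ± 0.065. The transcript has a GC content of 44.2%, and all tested genes in the same GC bin (of 10) had a median log2 fold change of -0.16.

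IL1RAP, on chromosome 3 from 190514051 to 190659750, encodes the co-receptor that both IL1R1 and IL1RL1 need to signal. It had 64.6, 76.5 and 86.1 CPM in control and 69.0, 77.3 and 74.7 CPM with exosomes. The exosome libraries lay inside the control range. The log2 fold change of -0.12 ± 0.095 had a 95% interval of -0.32 to 0.076 and was not called. Its sign turned with the correction (0.15 ± 0.078, not called).

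SIGIRR, on chromosome 11 from 405716 to 417455 on the minus strand, encodes the inhibitory receptor. It had 4.95, 5.73 and 5.42 CPM in control and 15.3, 13.6 and 9.75 CPM with exosomes. All exosome libraries lay above the controls, and exosome library 3 was the lowest of them. The log2 fold change was 1.18 ± 0.18, with 1.19 without control library 3 and 1.33 without exosome library 3. SIGIRR has the highest GC content of the members, 67.9%, and genes in that GC bin had a median log2 fold change of 0.49. Corrected, its log2 fold change was 0.52 ± 0.16, or 1.44-fold in place of 2.26-fold.

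The other called members have transcripts of low GC content, whose genes as a whole were lower with exosomes. GC content was 41.5% for IL1RL1, 41.7% for IL18R1 and 39.2% for IL18. The median log2 fold change of the genes in the same GC bin was -0.22 for IL1RL1 and IL18R1 and -0.33 for IL18. IL1RL1, IL18R1 and IL1R1 thus lay on the opposite side of zero from genes of like composition, and SIGIRR and IL18 on the same side.

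**Figure D1:**
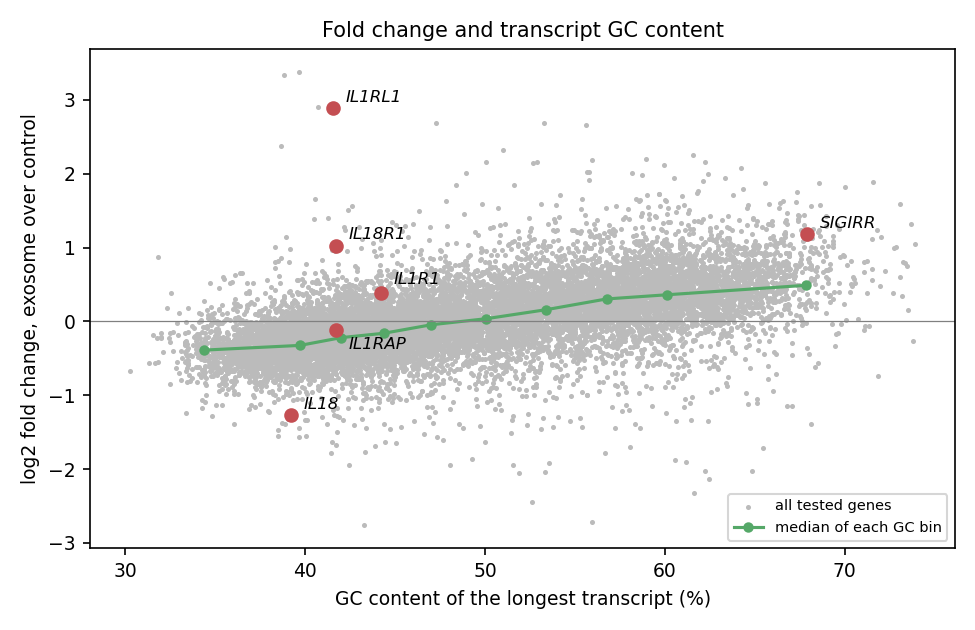
Log2 fold change of exosome over control (vertical) against the GC content of the longest transcript in percent (horizontal) for 12449 tested genes in grey, with the median of each of 10 GC bins in green and the 6 tested members in red. IL1RL1, IL18R1 and IL1R1 stand above the green line at low GC content, IL18 below it, and SIGIRR lies at the GC-rich end where the line is at 0.49.

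IL18, on chromosome 11 from 112143251 to 112164117 on the minus strand, encodes the ligand of IL18R1. It had 36.9, 44.8 and 41.9 CPM in control and 18.5, 17.6 and 18.1 CPM with exosomes. The exosome libraries were close to each other and all lay under every control library. The log2 fold change was -1.27 ± 0.11 and -1.19 ± 0.100 corrected. It was -1.25 without control library 3 and -1.28 without exosome library 3. An annotated coding gene on the opposite strand overlaps IL18 but shares 0 exonic bases with it.

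The IL-1 ligands themselves were close to undetected. IL1B had 2, 6 and 4 reads in control and 9, 5 and 5 with exosomes. IL1A had 1, 0 and 2 reads in control and 1, 0 and 2 with exosomes. IL1RN, the antagonist, had 0, 5 and 4 reads in control and 3, 3 and 4 with exosomes. The groups overlapped in all of these genes, and none passed the filter on low counts, so no fold is given.

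**Figure D2:**
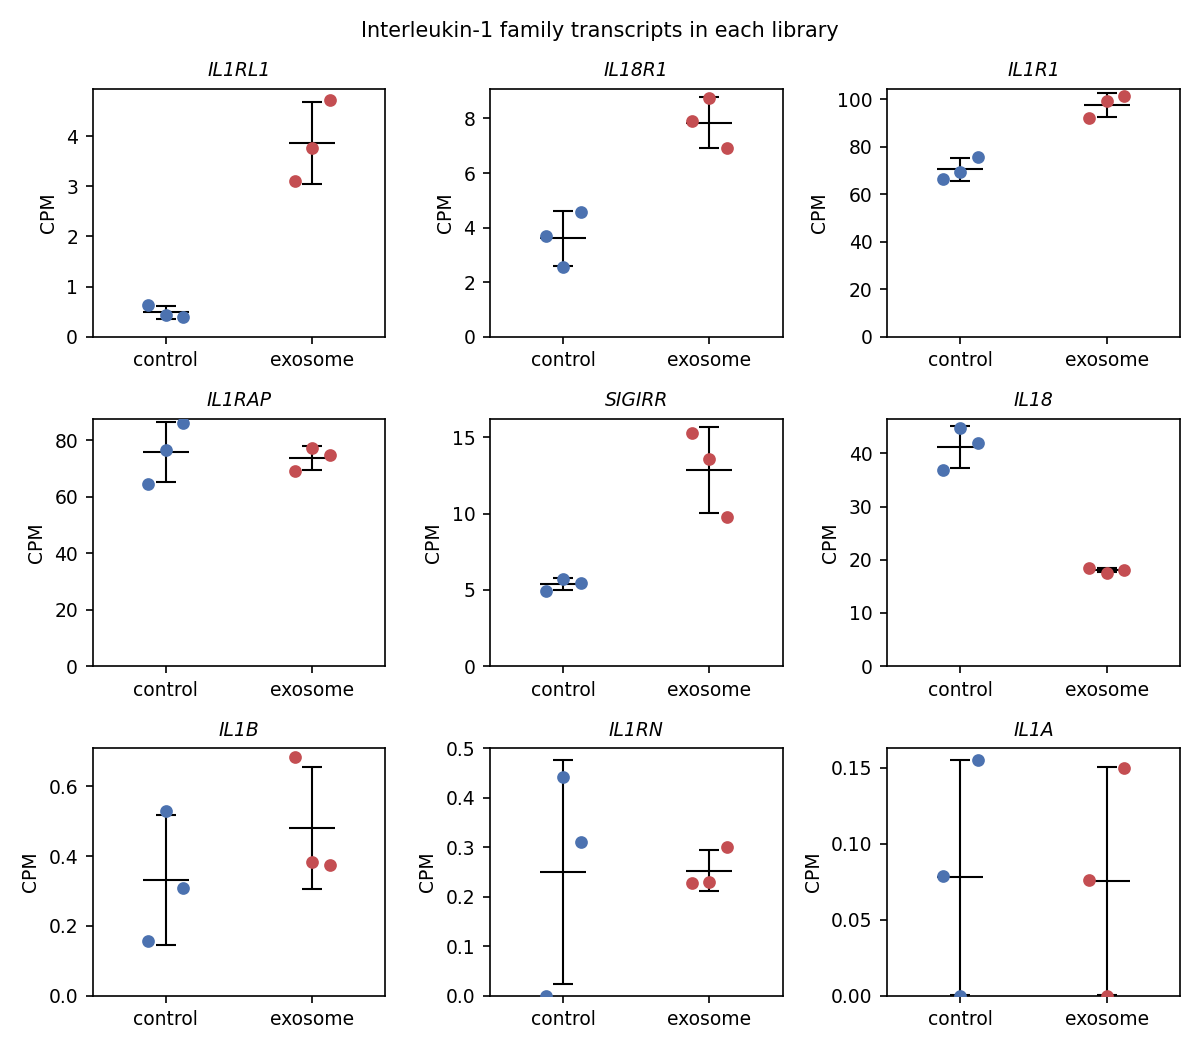
CPM (vertical axes, each starting at 0) of the 9 members in control (blue) and exosome (red) libraries, 1 point a library, with the mean and SD (n = 3) as bars. The groups lie apart for IL1RL1, IL18R1, IL1R1, SIGIRR and IL18, and overlap for IL1RAP, IL1B, IL1RN and IL1A.

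The CPM of the groups did not overlap in 5 of the 6 tested members, as they did not in 59.5% of all tested genes. Each of the 5 calls was kept, in the same direction, in all 6 fits that left out 1 library, with 4 members higher and 1 lower in each. These fits reuse the libraries by which the members were picked, so they show only that no single library carried a call.

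**Figure D3:**
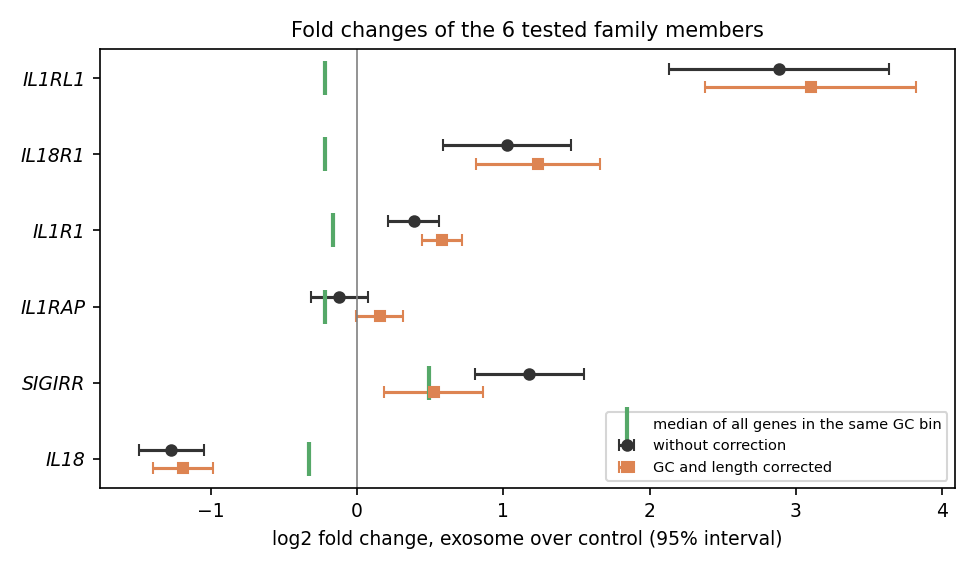
Log2 fold change of exosome over control (horizontal) for the 6 tested members, without correction (black circles) and corrected for GC content and length (orange squares), with 95% intervals of the edgeR fits. Green bars give the median of all genes in the same GC bin. IL1RL1 goes from 2.89 to 3.10 with the correction and SIGIRR from 1.18 to 0.52.

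Per transcript length, the order of levels was led by IL18. On the scale of the authors' FPKM (fragments or reads scaled to transcript length and library size), the control level of IL18 was 35.2 ± 3.42, that of IL1R1 11.2 ± 0.755, that of IL1RAP 7.62 ± 1.08 and that of SIGIRR 2.54 ± 0.185 (SD, n = 3). IL18R1 followed with 0.921 ± 0.257 FPKM. The control ranges of these 5 neighbours did not overlap. At the bottom, IL1B (0.203 ± 0.115 FPKM), IL1RN (0.108 ± 0.0979 FPKM) and IL1RL1 (0.0984 ± 0.0258 FPKM) could not be ordered beyond their spread. IL1A had the lowest mean, 0.0366 ± 0.0364 FPKM, but its control range lay within that of IL1RN. Against all 15761 rows, the control level of IL18 was at percentile 90.2, that of IL1R1 at 68.0 and that of IL1RL1 at 15.7.

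With exosomes IL18 had 15.5 ± 0.387 FPKM and IL1R1 15.5 ± 0.780 FPKM. On this scale the range of IL18 lay inside that of IL1R1. The relation depends on the gene lengths used. As TPM computed from the counts and merged exon lengths, IL18 had 61.0 ± 7.51 and IL1R1 38.9 ± 4.88 in control, and with exosomes IL18 had 26.5 ± 0.682 and IL1R1 53.1 ± 2.78, so that IL18 lay below IL1R1. On both scales IL18 was above IL1R1 in control. IL1RL1 came to 0.784 ± 0.164 FPKM, which moved it from the eighth to the sixth place, above IL1B. It remained below IL18R1 (2.0 ± 0.236 FPKM), SIGIRR (6.09 ± 1.34 FPKM) and IL1RAP (7.41 ± 0.426 FPKM).

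**Figure D4:**
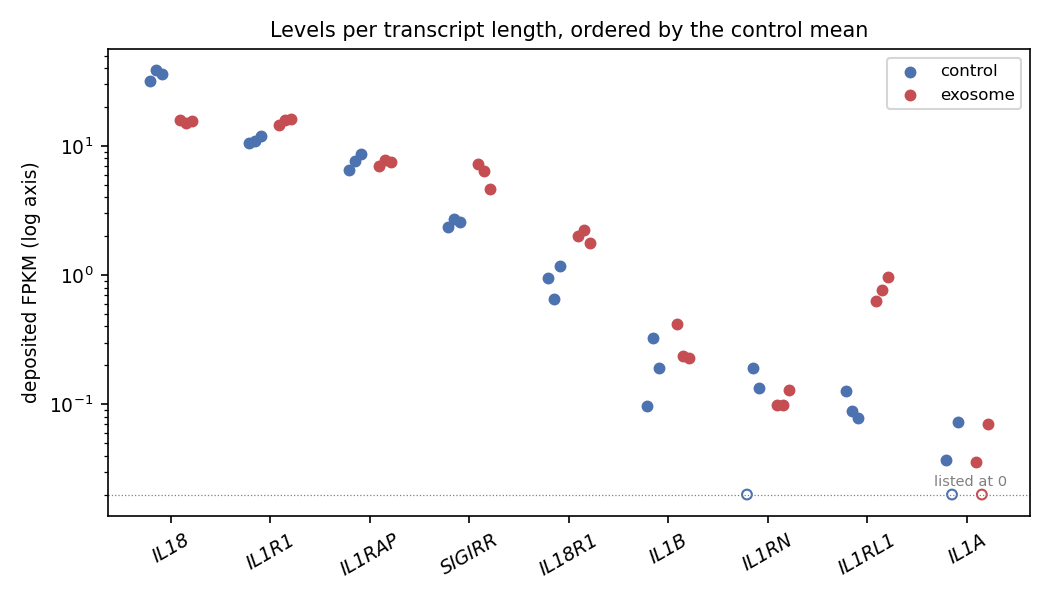
Deposited FPKM on a log axis for the 9 members, ordered by the control mean, with 1 point for each control (blue) and exosome (red) library. Open circles on the dotted line are libraries listed at 0. On this FPKM scale, though not by TPM, IL18 and IL1R1 both lie at 15.5 with exosomes, and IL1RL1 moves from 0.0984 to 0.784.

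IL1R1, IL1RL1 and IL18R1 sit in a row of receptor genes on chromosome 2, in which not all genes behaved alike. Between IL1R1 and IL1RL1 lies IL1RL2, the receptor of the IL-36 cytokines, with 21, 10 and 33 reads in control and 33, 23 and 23 with exosomes. Its log2 fold change was 0.14 ± 0.35 (edgeR adjusted p = 0.77). IL1R2, the decoy receptor at the near end of the row, had 9, 3 and 1 reads against 8, 8 and 6, and IL18RAP, the co-receptor of IL18R1 at the far end, had 0, 0 and 0 reads against 1, 0 and 2. The flanking kinase gene MAP4K4 changed by 0.14 ± 0.080 (edgeR adjusted p = 0.152) and MFSD9 on the other side by -0.062 ± 0.12 (edgeR adjusted p = 0.692). Neither passed without the correction. Corrected, the log2 fold change was 0.34 for MAP4K4 and -0.036 for MFSD9, beside 0.58 for IL1R1. Whether MAP4K4 or MFSD9 passed with the correction is not reported here, so MAP4K4 cannot be taken as unchanged. IL18RAP is needed for strong IL-18 signalling, and its 3 reads in all do not allow a fold.

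The rest of the family was mostly silent. Of 12 further ligands, receptors and decoys, 8 had a row, 3 were tested, and 1 was called higher and 0 lower. IL18BP, a secreted protein that captures IL-18, rose from 6.24 ± 0.448 to 11.2 ± 1.24 CPM (log2 fold change 0.76 ± 0.16, edgeR adjusted p = 0.000537; corrected 0.57, adjusted p = 0.00564). IL18BP shares 675 exonic bases with NUMA1 on the opposite strand, and no source names a strand setting. IL1RAPL1, a neuronal relative of the co-receptor, had 1.36 ± 0.567 and 1.42 ± 0.170 CPM and did not pass (edgeR adjusted p = 0.975). IL36G and IL36RN averaged under 0.1 CPM in both groups.

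Adaptors and kinases downstream of the receptors moved in both directions. Of 22 listed, 20 were tested, and 8 rose and 8 fell, which is 80% called against 51.7% of all genes. Corrected, 3 were higher and 4 lower, 35% against 35.4%. The corrected calls are not all among the others. ECSIT, a TRAF6-binding adaptor named after its values were seen, was called higher without the correction (0.23, edgeR adjusted p = 0.0211) and lower with it (-0.27, adjusted p = 0.0152). IRAK2, an amplifying kinase, rose from 13.8 ± 0.549 to 21.9 ± 2.13 CPM (0.58 ± 0.12, edgeR adjusted p = 0.000485; corrected 0.44, adjusted p = 0.00358). TRAF6, the ubiquitin ligase of the pathway, fell from 21.0 ± 2.10 to 14.7 ± 1.68 CPM (-0.60 ± 0.13, edgeR adjusted p = 0.000625; corrected -0.36, adjusted p = 0.017). TAB2, which couples TRAF6 to the kinase TAK1, fell from 138 ± 2.20 to 102 ± 13 CPM (-0.51, edgeR adjusted p = 7.31e-05; corrected -0.21, adjusted p = 0.0145).

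For the remaining named adaptors the call ended with the correction. TAB3 was lower by -0.50 and then -0.089 (corrected edgeR adjusted p = 0.226). TMED1, reported to bind the ST2 receptor, was higher by 0.43 and then -0.096 (corrected edgeR adjusted p = 0.44), and it shares 776 of 1513 exonic bases with DNM2 on the opposite strand. IRAK1 was higher by 0.26 and then -0.12 (corrected edgeR adjusted p = 0.134). MYD88, the first adaptor, named here after its values were seen, went from 0.28 (edgeR adjusted p = 0.0114) to 0.14 corrected (adjusted p = 0.161).

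Of 25 listed genes that process and release the cytokines, 18 were tested, and 9 rose and 2 fell. That is 61.1% called against 51.7% of all tested genes, with a median log2 fold change of 0.24 against -0.0042. Corrected, 5 were higher and 2 lower, and the 38.9% called were close to the 35.4% of all tested genes (median 0.089). CAPNS1, a calpain subunit named after its values were seen, was called higher without the correction (0.24, edgeR adjusted p = 0.0176) and lower with it (-0.23, adjusted p = 0.0083). CASP4, an inflammatory caspase that senses lipopolysaccharide, rose from 66.2 ± 13 to 141 ± 8.60 CPM (1.01 ± 0.12, edgeR adjusted p = 1.31e-05; corrected 1.35, adjusted p = 0.000666). AIM2, a sensor of cytosolic DNA, rose from 17.5 ± 1.0 to 35.7 ± 4.49 CPM (0.95 ± 0.12, edgeR adjusted p = 1.74e-06; corrected 0.96, adjusted p = 6.92e-07). CARD16, a small inhibitor of caspase-1, rose from 2.09 ± 0.758 to 5.88 ± 1.68 CPM (1.41 ± 0.28, edgeR adjusted p = 0.000255; corrected 1.38, adjusted p = 0.000385).

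CASP1, which encodes the enzyme that matures IL-18 and IL-1 beta and is named here after its values were seen, rose by 0.65 ± 0.17 (edgeR adjusted p = 0.00312; corrected 0.73, adjusted p = 0.00101). CARD16 is nearly identical to part of CASP1, so the share of reads given to each is uncertain. DPP8, a protease that restrains inflammasomes, was lower by -0.54 (edgeR adjusted p = 0.000118), and NINJ1, a protein of membrane rupture, higher by 0.53 (edgeR adjusted p = 0.00047). Both calls ended with the correction (DPP8 -0.092, adjusted p = 0.391, and NINJ1 0.16, adjusted p = 0.141). The inflammasome sensor NLRP3, also chosen after its values were seen, averaged 0.0294 CPM in control and 0.025 CPM with exosomes.

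Of 26 listed genes known to be induced by IL-1, 15 were tested, and 9 rose and 1 fell. That is 66.7% called against 51.7% of all tested genes, with a median of 0.58. Corrected, 7 were higher and 1 lower, or 53.3% against 35.4%, with a median of 0.46. The list was chosen with earlier results of these data known, so these shares are a description and no independent evidence. ICAM1, TNFAIP3 and NFKBIA, which encode an adhesion molecule and a pair of inhibitors of NF-kB signalling, rose by 1.14 ± 0.090, 1.21 ± 0.16 and 0.83 ± 0.15 (edgeR adjusted p = 3.17e-09, 3.53e-06 and 0.000128). Corrected, the values were 0.86, 1.22 and 0.56 (edgeR adjusted p = 2.39e-08, 2.34e-06 and 0.00195). ICAM1 shares 815 of 3706 exonic bases with an antisense gene on the opposite strand, and no source names a strand setting. ZC3H12A, an RNase that degrades cytokine transcripts, rose from 2.86 ± 0.342 to 7.19 ± 1.57 CPM (1.24 ± 0.22, edgeR adjusted p = 8.16e-05; corrected 0.83, adjusted p = 0.00467).

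Within this list the prostaglandin enzymes parted. PTGS2, the inducible cyclooxygenase and a classical IL-1 target, fell from 8.09 ± 0.972 to 3.77 ± 0.116 CPM (-1.19 ± 0.19, edgeR adjusted p = 2.85e-05; corrected -0.83, adjusted p = 0.00113). PTGES, the synthase that acts after it, rose from 88.8 ± 9.05 to 140 ± 10.7 CPM (0.58 ± 0.088, edgeR adjusted p = 1.67e-05; corrected 0.21, adjusted p = 0.0116). The cytokines of the list, named after their values were seen, parted as well. CXCL8 and IL6 had 2.27 and 1.13 CPM in control and did not pass (edgeR adjusted p = 0.41 and 0.848). CXCL1 and CCL2 did not pass either (edgeR adjusted p = 0.311 and 0.313). CXCL2 rose from 1.91 ± 1.09 to 4.99 ± 1.19 CPM (1.32 ± 0.31, edgeR adjusted p = 0.00147). Corrected, CXCL2 was higher by 1.19 (edgeR adjusted p = 0.00465). Many of these genes answer other NF-kB signals as well, and the data hold no measure of the receptors' activity.

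**Figure D5:**
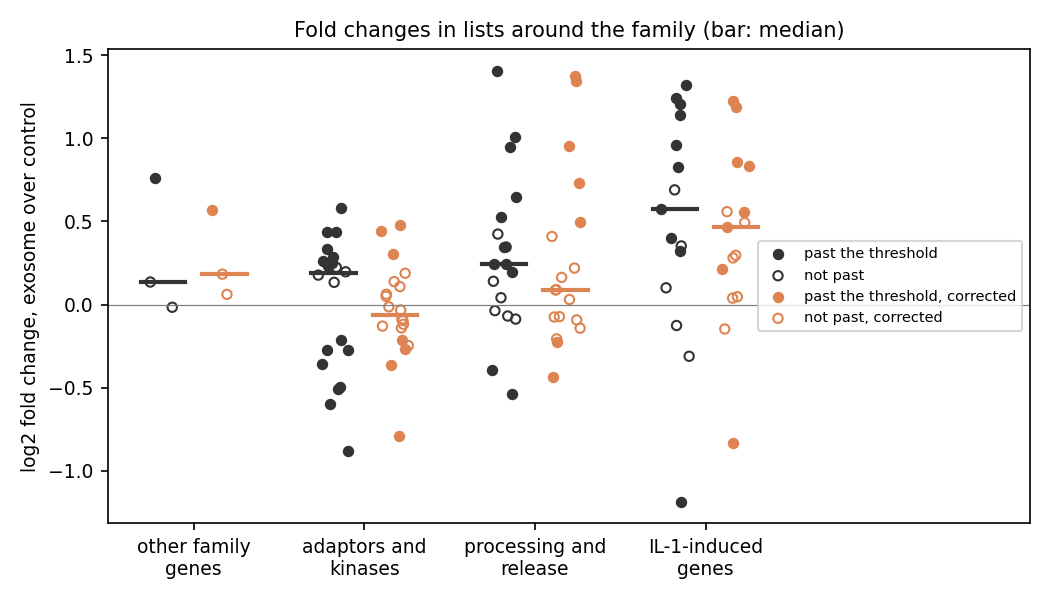
Log2 fold change of exosome over control (vertical) for the tested genes of 4 lists (side by side), without correction (black) and corrected for GC content and length (orange), with filled points past the threshold, open points not past it, and bars at the medians. The median of IL-1-induced genes is 0.58 without and 0.46 with the correction, while that of adaptors and kinases goes from 0.19 to -0.061.

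The genes whose pattern over the 6 libraries was closest to that of IL1RL1 were FGG (fibrinogen gamma chain), ADAMTS14, S100A9, LRG1 and CD74, out of 12124 candidates averaging at least 1 CPM. Likeness was the Euclidean distance between log2 CPM values centred on each gene's mean. It was 0.579 for FGG, 0.684 for ADAMTS14, 0.696 for S100A9, 0.836 for LRG1 and 0.958 for CD74. A prior count of 2 entered the log2 CPM, which shrinks differences where reads are few, as for IL1RL1 in control. The fitted log2 fold changes of the 5 genes, in this order, were 2.38, 2.25, 2.66, 2.19 and 1.99, against 2.89 for IL1RL1. CD74, the MHC class II invariant chain, went from 33.8 ± 5.57 to 142 ± 11.3 CPM. Since all libraries of a group sit together in these genes, the distance mostly compares their difference between groups.

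Most markers of cells that carry ST2 were near 0, but IL7R was not. Of 12 markers of mast cells, type 2 innate lymphoid cells and T cells, 10 had a row and 2 averaged at least 1 CPM: IL7R, at 189 ± 7.74 CPM in control and 155 ± 8.80 CPM with exosomes, and KIT. The summed level of the list was 185 to 200 CPM in control and 147 to 165 CPM with exosomes, nearly all of it IL7R. The leukocyte marker PTPRC had 0.170 ± 0.177 and 0.0756 ± 0.0759 CPM, and the mast cell gene TPSAB1 0.0524 ± 0.0908 CPM in control and was listed at 0 with exosomes. Of 10 fibroblast markers, 7 had a row, and only 3 averaged at least 1 CPM (COL1A1, COL1A2 and PDGFRB). The sum of the list was 104 to 114 CPM in control and 48.9 to 54.2 CPM with exosomes, and its part in the results was not tested. Macrophage markers summed to 149 to 179 CPM in control and 195 to 204 CPM with exosomes, of which CD68, a lysosomal protein also found in other cells, gave most, and their part in the results was not tested. Endothelial markers summed to 10.7 to 12.7 CPM and 12 to 13.6 CPM. In bulk RNA a change in the share of cells that express a gene and a change in RNA per cell cannot be told apart.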

How the data were processed

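RNA of 6 SK-MES-1 samples was extracted with Trizol and made into NEBNext Ultra libraries, per the labels' protocols. STAR and GRCh38 are named in the submitters' processing notes, while for the counting program, annotation release and strand setting the sources used here give nothing. The deposited table holds the authors' read counts per gene, which were used for every test, and the authors' FPKM, used for levels between genes. Its normalised signal (counts divided by 1 size factor per library), its log2 fold changes and its p-values, also made by the authors and named per the file headers, were not used.

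Counts of all genes were fitted in R 4.3.3 by edgeR 4.0.16 with TMM factors, the filterByExpr filter and a robust quasi-likelihood fit on group alone, with Benjamini-Hochberg adjustment over 12449 genes and a threshold of 0.05. Each SE was derived as |log2 fold change| divided by the square root of F. CPM are counts over the library total. The correction smooths each library's log2 CPM deviation on GC content and log2 length of the longest GENCODE 29 transcript (loess, span 0.3) and enters the fit as an offset. Alternatives were RLE factors, library totals, other filters, DESeq2 1.42.0, dropping each library in turn, a block on replicate number and a 0.01 threshold. The script was tested on simulated data. Positions are those of GENCODE 29, which lie 1 base above the table's.

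Members and lists were chosen with earlier results of these data known. The text names all members, from each list the up to 6 tested genes of lowest adjusted p, and the 5 genes nearest to IL1RL1. Of these, 1 gene is not reported here.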

Additional observations from a re-analysis of the deposited data

How the results depend on the processing

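The counts of members called (4 higher, 1 lower) were the same under all alternatives run. The members were picked with this contrast known, so this sameness adds no separate evidence. With the GC and length correction 2148 genes were lower, against 3244, and 3 adaptors were higher and 4 lower, with or without a replicate block, against 8 and 8. With the correction, alone or with the block, 5 processing genes were higher, against 9. At a threshold of 0.01, 4 adaptors were higher, and with library totals 5 were lower. Leaving out 1 library gave 5 to 9 adaptors higher (5 without control library 2) and 5 to 7 lower (5 without exosome library 1). Among the genes named by the rule, signs turned for IL1RAP (0.15 corrected, 0.16 with block and correction), TMED1 (-0.096 and -0.089) and IRAK1 (-0.12 and -0.12). IL1RAPL1, at -0.016, gave 0.064 with library totals, 0.0018 with the block, 0.18 corrected, 0.19 with both and -0.32 to 0.20 leaving out 1 library; IL1RL2 gave -0.15 to 0.56 in the latter. By TPM, IL1RL1 ranked 7 and IL1RN 8 in control, the reverse of FPKM. The cause of these shifts was not tested.

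Whether libraries of the same replicate number belong together could not be settled. The correlation of deviations from the group means was 0.066, 0.10 and 0.21 for numbers 1 to 3. Every library correlated best with its own number. Control library 3 gave -0.11 and -0.14 with exosome libraries 1 and 2. The values are low, but they do not exclude a pairing, and the main fit used group alone. With the replicate block 3444 genes were higher and 3525 lower, and no call ended among the genes that the naming rule gave. The depth of 11.3 to 13.3 reads per CPM limits IL1RL1 in control, IL1A, IL1B and IL1RN.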
